A study of Mus musculus with 12 samples.

Results

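Alveolar type 1 cell genes were followed by 8 genes of the count table, chosen by name as known markers of that cell. They and all other gene lists were chosen with earlier results of these data known. Counts of them set beside shares of all genes are therefore a description and no test. The list held 9 names, of which Ager, Hopx, Pdpn, Rtkn2, Emp2, Clic5, Lmo7 and Akap5 were found among the 23478 genes of the table, and "Vegfa-free", which is no gene symbol, was not found. All 8 had enough counts to be tested, as did 15761 genes in all.

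Type 1 cells are the thin, flat epithelial cells that cover most of the gas exchange surface and share a basement membrane with the capillaries. They arise from progenitors before birth and, after injury, from type 2 cells, the surfactant-making cells of the alveolus, which pass through a transitional state rich in keratins on the way. Of the markers, Ager encodes RAGE, a receptor of the immunoglobulin family that in lung lies in the basal membrane of type 1 cells, and Pdpn encodes podoplanin, a mucin-like protein of their apical surface that also marks lymphatic vessels. Hopx encodes a small homeodomain protein without DNA binding of its own, and Emp2 a membrane protein with 4 passes. Clic5 encodes a chloride intracellular channel protein tied to ezrin and actin, Lmo7 a LIM domain protein of cell junctions, and Akap5 an anchor for protein kinase A and calcineurin.

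RNA was sequenced from whole lungs of newborn C57/Bl6 mice from which the lavage fluid had been taken out. In 4 groups of 3 libraries each, pups had received on day 0 either aurothioglucose (ATG, a gold compound known as an inhibitor of thioredoxin reductases) at 25 mg/kg or saline, both into the peritoneum, and stayed in oxygen above 95% for 72 h (hyperoxia) or in room air. The groups are called ATG hyperoxia, saline hyperoxia, ATG room air and saline room air, and every group shares the strain, the injection and the removal of lavage fluid. The labels do not say whether the 3 libraries of a group came from separate animals or litters, so p-values measure the spread between libraries, which may be technical. By Xist and Y-linked genes, ATG hyperoxia, saline hyperoxia and ATG room air each held both male and female libraries. The libraries of each of these groups thus did not all come from the same animal, but the number of animals and litters stays unknown. All saline room air libraries were male, so sex was not balanced between that group and the others. Lung cells were not sorted, so fewer type 1 cells and less of an RNA per cell cannot be told apart.

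Total counts per library ran from 18009965 to 20486735 in ATG hyperoxia, from 16490223 to 19267023 in saline hyperoxia, from 14589812 to 17368904 in ATG room air and from 14331749 to 15916703 in saline room air. Levels are given as CPM, the count of a gene scaled to a common library size. Summed over 9 cardiomyocyte markers, the level was 7036 CPM in ATG hyperoxia 2 and 3194 CPM in saline hyperoxia 2, where the remaining 10 libraries held 430 to 988 CPM, and saline hyperoxia 1 held 364 CPM of 8 skeletal muscle markers against 22 to 63.4 CPM elsewhere. The 20 other type 1 markers were all present, at a summed level of 6561 CPM or more in every library.

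Together the 8 genes took 0.425% to 0.599% of the counts of a library. Their summed level was 5608 ± 271 CPM in ATG hyperoxia, 5604 ± 572 CPM in saline hyperoxia, 5013 ± 195 CPM in ATG room air and 4645 ± 439 CPM in saline room air (SD, n = 3 each). The lowest hyperoxia library after saline, saline hyperoxia 2, stood at 4947 CPM, below the 5118 CPM of the highest saline room air library, and it was the lowest of its group for each of the 8 genes. After ATG the sums did not overlap, with 5308 CPM or more in hyperoxia and 5193 CPM or less in room air. Per kilobase of exon, Ager had the highest mean level in all 4 groups, at 417 ± 62.6, 403 ± 50.5, 354 ± 54 and 309 ± 35.8 CPM per kb in ATG hyperoxia, saline hyperoxia, ATG room air and saline room air. Emp2 and Akap5 followed, then Clic5 and Hopx, then Lmo7, and Pdpn and Rtkn2 were lowest, at 29.7 to 35.7 CPM per kb on average. In each group Clic5 and Hopx overlapped each other across libraries, as did Pdpn and Rtkn2, so the order within these pairs is not set beyond the spread. Ager and Emp2 overlapped in both room air groups, Emp2 and Akap5 in both hyperoxia groups, and Lmo7 and Rtkn2 in saline room air.

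**Figure D1:**
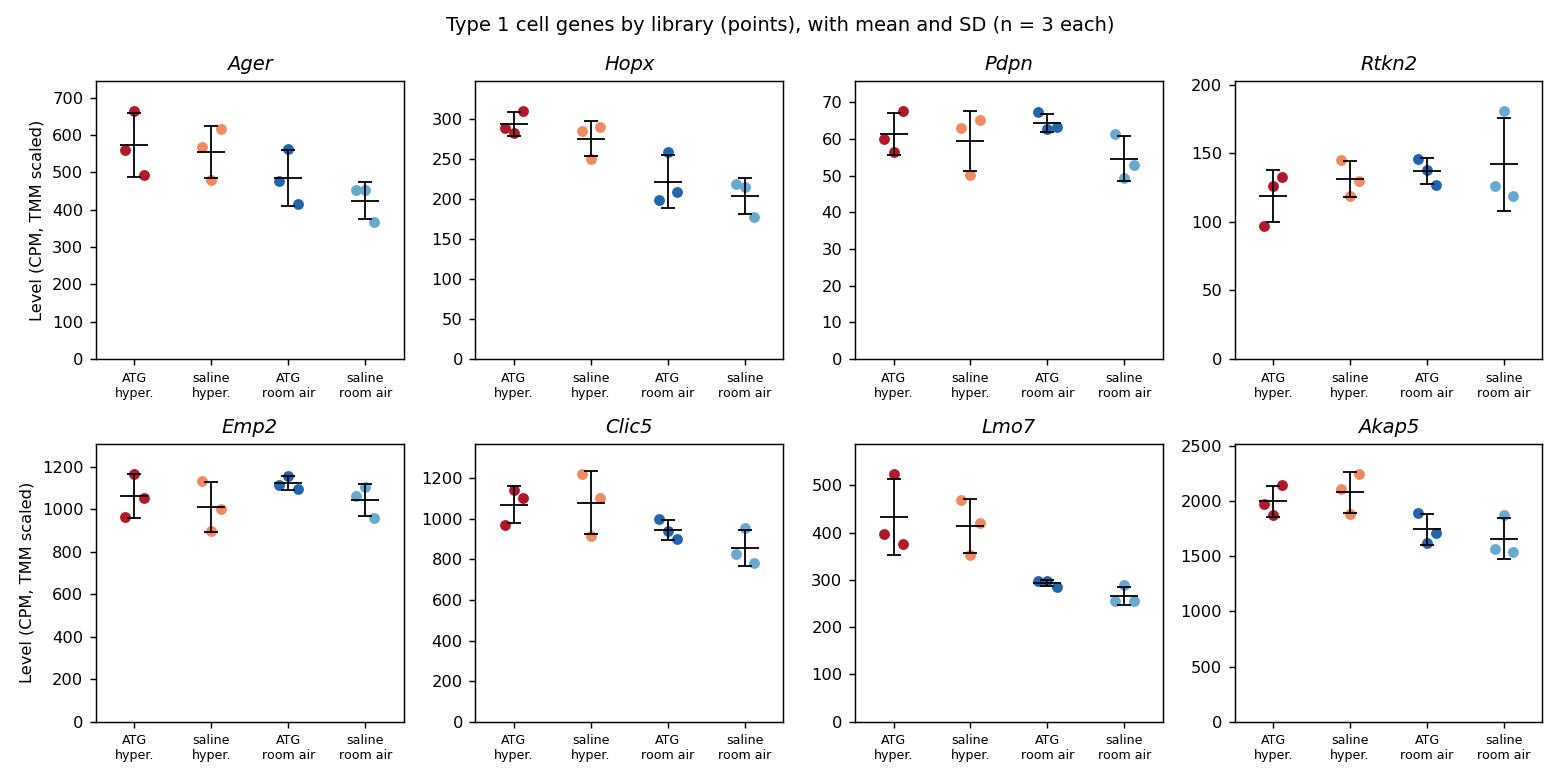
Level of each of the 8 type 1 cell genes (CPM, vertical axis starting at 0) in every library of the 4 groups, with points for libraries and lines for the mean of 3. Lmo7 and Hopx points of the hyperoxia groups lie above the room air points of the same injection, while Pdpn, Rtkn2 and Emp2 points overlap.

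Hyperoxia was compared with room air after each injection to ask how high oxygen changes the newborn lung. Lmo7 and Hopx rose in hyperoxia after both injections, by 1.48 to 1.55 and by 1.32 to 1.35 times, and Akap5 rose after saline. Ager and Clic5 joined them when the effects after ATG and after saline were averaged. Scaled to the sum of epithelial markers, none of the 8 genes rose after either injection. That scaling moved the median of all genes by −0.30 after ATG and −0.35 after saline. In the averaged comparison only 2.56% of all genes, among them Lmo7, were called higher on that scale. On that scale Lmo7 stood at 0.25 after ATG (adjusted p = 0.105) and 0.28 after saline (0.0653), and Hopx at 0.11 after ATG (0.49) and 0.08 after saline (0.605). The averaged values of Ager (−0.02), Clic5 (−0.07) and Akap5 (−0.06) and that of Akap5 after saline (−0.02) then lay below 0. On the same scale Emp2 (−0.38 after ATG, adjusted p = 0.0132, and −0.40 after saline, 0.011) was called lower. Rtkn2 (−0.51 after ATG, 0.0233, and −0.46 after saline, 0.0322) was too, as was Pdpn averaged (−0.30, 0.0159). In the averaged comparison 46.3% of all genes were called lower on that scale. Without that scaling, Pdpn, Emp2 and Rtkn2 did not pass in any hyperoxia comparison. So 3 of 8 genes rose after saline, where 9.19% of all tested genes were called in either direction and 4.70% as higher. After ATG 2 of 8 rose, against 11.7% of all genes called and 5.41% called higher. In the averaged comparison 5 of 8 rose, against 22.4% of all genes called in either direction, 1741 of them higher and 1785 lower. None of the 8 was lower past the threshold of an adjusted p of 0.05 without the epithelial scaling. Over all genes 6.25% were called lower after ATG and 4.50% after saline. The median log2 fold change of the 8 genes was 0.19 after ATG, 0.33 after saline and 0.26 averaged, where it was 0.00 over all tested genes.

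Lmo7 (GENCODE M21 on GRCm38, chr14:101729957-101934710, plus strand) links actin to the junctions that hold epithelial cells together. After ATG it stood at 398, 525 and 376 CPM in hyperoxia libraries 1 to 3, against 297, 298 and 286 CPM in room air. After saline it stood at 468, 353 and 420 CPM in hyperoxia, against 255, 289 and 256 CPM in room air. Every hyperoxia library lay above every room air library of its injection, and the highest value, 525 CPM, came from the library richest in cardiac transcripts. The log2 fold change was 0.56 (SE 0.12, edgeR quasi-likelihood adjusted p = 0.00795) after ATG and 0.63 (SE 0.12, adjusted p = 0.00562) after saline, with 95% intervals of 0.30 to 0.82 and 0.37 to 0.90. Without ATG hyperoxia 2 the effect after ATG was 0.41 and still passed (adjusted p = 0.0255), and no library left out on its own ended either call.

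Hopx (chr5:77086988-77115121, minus strand) is also expressed in the developing heart, where it tunes cardiac growth. In ATG-injected pups its level was 289, 282 and 310 CPM in hyperoxia, against 198, 259 and 208 CPM in room air. In saline-injected pups its level was 285, 250 and 290 CPM in hyperoxia, against 219, 215 and 178 CPM in room air. Again no hyperoxia library overlapped its room air group, and the libraries rich in cardiac transcripts, both numbered 2, were the lowest of their hyperoxia groups. The log2 fold change was 0.40 (SE 0.11, adjusted p = 0.0259, 95% interval 0.17 to 0.64) after ATG and 0.43 (SE 0.11, adjusted p = 0.023, 0.20 to 0.66) after saline. The antisense gene Hopxos shares 412 exon bases with Hopx and the strand of counting is not given in the sources used here, so reads of the 2 cannot be told apart and the Hopx values are uncertain in that respect. The Hopx call was less stable than that of Lmo7, since it ended after saline without saline room air 2 (0.48, adjusted p = 0.0501) or 3 (0.35, 0.12), or without saline hyperoxia 1 (0.41, 0.0746) or 3 (0.39, 0.0955). After ATG it ended without ATG room air 1 (0.34, adjusted p = 0.118) or 3 (0.37, 0.104), or without ATG hyperoxia 1 (0.43, 0.0554) or 3 (0.37, 0.0785).

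The promoter windows of Hopx and Lmo7 are shown because these genes rose after both injections. They come from RefSeq on GRCm38.p6, run 5′ to 3′ along the gene and cover 250 bases before to 50 bases after an annotated start. Capitals mark CTTGAG, the reverse complement of the core CTCAAG bound by NKX2-1, a lung epithelial transcription factor, and GGGCGG or CCGCCC, the GC box. The downstream window of Lmo7 holds none of these.
Hopx, start nearer the 3′ end of the gene, chr5:77095218-77095517, minus strand: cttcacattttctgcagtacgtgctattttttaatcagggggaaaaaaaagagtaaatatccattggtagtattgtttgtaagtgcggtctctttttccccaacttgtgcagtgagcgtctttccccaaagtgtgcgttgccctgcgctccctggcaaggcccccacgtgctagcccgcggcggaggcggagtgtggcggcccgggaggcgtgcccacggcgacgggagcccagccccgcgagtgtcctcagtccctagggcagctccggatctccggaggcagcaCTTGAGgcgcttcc
Hopx, upstream start, chr5:77115074-77115373, minus strand: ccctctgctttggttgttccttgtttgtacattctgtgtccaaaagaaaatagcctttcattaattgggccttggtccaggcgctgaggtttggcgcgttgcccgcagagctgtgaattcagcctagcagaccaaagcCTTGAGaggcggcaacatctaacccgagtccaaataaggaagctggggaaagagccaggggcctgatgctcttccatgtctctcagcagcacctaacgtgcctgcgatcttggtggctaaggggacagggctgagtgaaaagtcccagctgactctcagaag
Lmo7, upstream start, chr14:101729678-101729977, plus strand: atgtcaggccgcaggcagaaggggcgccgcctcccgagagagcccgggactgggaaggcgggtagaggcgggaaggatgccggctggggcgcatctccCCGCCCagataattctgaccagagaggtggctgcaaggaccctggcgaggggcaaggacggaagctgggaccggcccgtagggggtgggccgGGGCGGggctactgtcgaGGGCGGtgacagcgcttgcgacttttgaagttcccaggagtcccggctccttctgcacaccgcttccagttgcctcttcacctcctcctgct
Lmo7, downstream start, chr14:101840373-101840672, plus strand: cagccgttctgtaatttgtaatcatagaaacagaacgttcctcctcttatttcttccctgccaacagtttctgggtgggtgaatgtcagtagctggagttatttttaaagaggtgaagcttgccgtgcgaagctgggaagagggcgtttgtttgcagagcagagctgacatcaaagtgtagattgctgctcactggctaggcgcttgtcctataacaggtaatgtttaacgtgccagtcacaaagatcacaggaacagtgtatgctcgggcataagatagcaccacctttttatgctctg
CTCAAG or CTTGAG was found in both Hopx windows and in no other window of the 9 that matched 7 of the 8 genes, and 15.9% of 32851 mouse promoter windows of this length hold it. Rtkn2 had no window. GGGCGG or CCGCCC was found in 5 of the 9 windows, those of Pdpn, Emp2, Clic5 and Akap5 and the upstream window of Lmo7, and in 35.7% of all windows, and no window held both motifs. GGAATG or CATTCC, the core bound by TEAD factors, which work with YAP and TAZ, was in none of the 9 and in 14.7% of all windows. TGANTCA, the AP-1 core on either strand, was in none of the 9 against 7.8%, and TATAAA or TTTATA in none against 13.6%. The 9 windows had a median GC content of 58.3%, against 52.7% over all windows.

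Akap5 (chr12:76324891-76334153, plus strand) anchors kinase A and calcineurin near membrane receptors and channels. The ATG libraries held 1973, 1871 and 2146 CPM in hyperoxia, against 1893, 1623 and 1713 CPM in room air. The saline libraries held 2108, 1883 and 2250 CPM in hyperoxia, against 1567, 1871 and 1535 CPM in room air. The saline groups lay apart by a narrow gap and the ATG groups overlapped. The log2 fold change was 0.20 (adjusted p = 0.228) after ATG and 0.33 (SE 0.10, adjusted p = 0.0487) after saline, and 0.26 (SE 0.07, adjusted p = 0.013) averaged. The saline call lay at the threshold and ended under 10 alternatives, among them a fit of the 6 saline libraries alone (0.33, adjusted p = 0.0532), sex as a covariate (0.30, adjusted p = 0.124) and each of saline room air 1 or 3 and saline hyperoxia 1 or 3 left out.

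Ager (chr17:34597862-34600936, plus strand) encodes a receptor much enriched in type 1 cells that binds alarmins such as HMGB1 and S100 proteins. After ATG the gene reached 561, 665 and 494 CPM in hyperoxia, against 477, 564 and 416 CPM in room air. Following saline the level was 567, 479 and 616 CPM in hyperoxia, against 452, 453 and 367 CPM in room air. The saline groups did not overlap and the ATG groups did. Its log2 fold change was 0.24 (adjusted p = 0.298) after ATG and 0.39 (SE 0.14, adjusted p = 0.0947) after saline, neither past the threshold, though the saline value passed by DESeq2 (0.39, adjusted p = 0.0315) and with sex as a covariate (0.58, adjusted p = 0.00974). By Xist and Y-linked genes, 1 of 3 saline hyperoxia libraries and 3 of 3 saline room air libraries were male. Averaged over injections it was 0.31 (SE 0.10, adjusted p = 0.0293), a call that ended when any of saline room air 3, ATG room air 1 or 3, saline hyperoxia 1 or 3, or ATG hyperoxia 2 was left out.

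Clic5 (chr17:44188584-44280172, plus strand) stood at 967, 1143 and 1100 CPM in ATG hyperoxia, against 999, 939 and 898 CPM in ATG room air. After saline the gene reached 1223, 914 and 1100 CPM in hyperoxia, against 826, 954 and 783 CPM in room air. In each injection a single hyperoxia library reached down into the room air range, and after saline it was saline hyperoxia 2. Its log2 fold change was 0.18 (adjusted p = 0.334) after ATG, 0.34 (SE 0.11, adjusted p = 0.0691) after saline and 0.26 (SE 0.08, adjusted p = 0.0254) averaged. Without saline hyperoxia 2, rich in cardiac transcripts, the effect after saline was 0.45 and passed (adjusted p = 0.0153), and the averaged call ended without saline room air 1 or 3, ATG room air 3 or saline hyperoxia 1.

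In all, 4 of the 8 genes (Ager, Hopx, Lmo7 and Akap5) had every saline hyperoxia library above every saline room air library, where 14.6% of all tested genes did. After ATG, Hopx and Lmo7 did so, 2 of 8, against 13.7% of all genes. No gene of the 8 had all hyperoxia libraries below all room air libraries, as 13.9% of all genes did after ATG and 14.9% after saline.

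**Figure D2:**
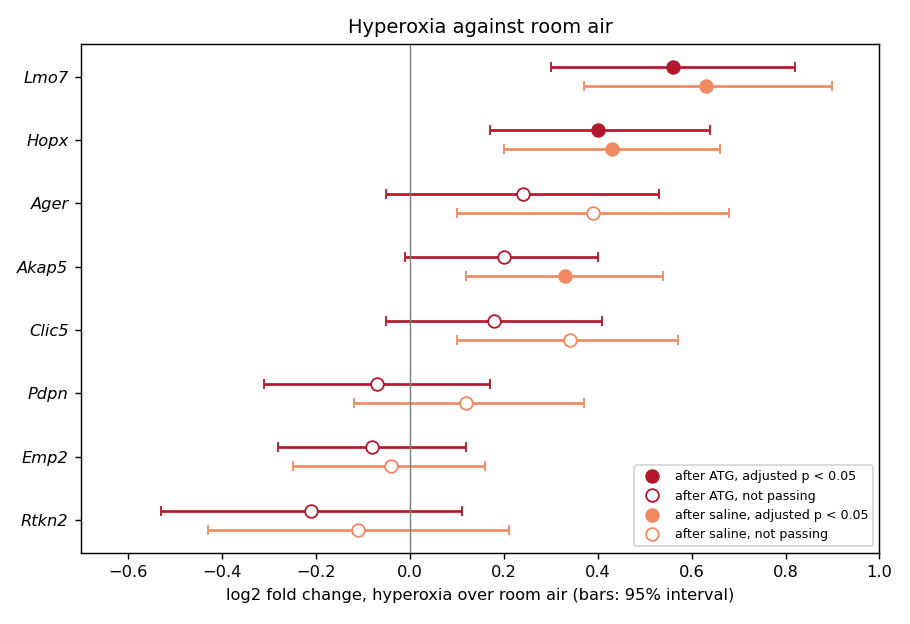
Log2 fold change of hyperoxia over room air for each type 1 cell gene after ATG and after saline, with 95% intervals; filled points have an adjusted p under 0.05. Lmo7 (0.56 and 0.63) and Hopx (0.40 and 0.43) are filled for both injections and Akap5 (0.33) for saline, while the intervals of Pdpn, Emp2 and Rtkn2 cross 0; scaled to epithelial markers, the Akap5 value after saline falls below 0 (−0.02).

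The other 3 genes did not pass without the scaling to epithelial markers. Emp2 (chr16:10281749-10313968, minus strand), which in other epithelia regulates integrins and caveolins at the membrane, stood at 963, 1168 and 1053 CPM in ATG hyperoxia, against 1116, 1157 and 1094 CPM in ATG room air. Saline-injected lungs showed 1131, 899 and 1003 CPM in hyperoxia, against 1061, 1106 and 959 CPM in room air. The ranges overlapped almost wholly. The log2 fold changes were −0.08 (95% interval −0.28 to 0.12, adjusted p = 0.658) after ATG and −0.04 (−0.25 to 0.16, adjusted p = 0.835) after saline.

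Pdpn (chr4:143267431-143299564, minus strand) stood at 59.9, 56.6 and 67.7 CPM in ATG hyperoxia, against 67.3, 62.7 and 63.2 CPM in ATG room air. The saline groups held 62.9, 50.1 and 65.3 CPM in hyperoxia, against 61.4, 49.5 and 52.8 CPM in room air. The libraries of the conditions were mixed. The log2 fold changes were −0.07 (95% interval −0.31 to 0.17, adjusted p = 0.759) after ATG and 0.12 (−0.12 to 0.37, adjusted p = 0.57) after saline. Lymphatic vessels and mesothelium also make podoplanin. Averaged over injections, 5 lymphatic markers had a median of −0.08, where 22.4% of all tested genes were called. Of these, Lyve1, a hyaluronan receptor, rose (1.36, adjusted p = 8.05e-08) and Flt4, the receptor of VEGF-C, fell (−0.28, adjusted p = 0.0307). Prox1, the factor that defines lymphatic endothelium, was at 0.08 (adjusted p = 0.813). None of 5 mesothelial markers passed, and the part of either cell type in the Pdpn level was not tested.

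Rtkn2 (chr10:67979570-68059740, plus strand) stood at 97, 126 and 133 CPM in ATG hyperoxia, against 146, 138 and 127 CPM in ATG room air. With saline the level was 145, 119 and 130 CPM in hyperoxia, against 126, 181 and 119 CPM in room air. It varied more between saline room air libraries (SD 34.4 CPM around 142 CPM) than between conditions. The log2 fold changes were −0.21 (95% interval −0.53 to 0.11, adjusted p = 0.418) after ATG and −0.11 (−0.43 to 0.21, adjusted p = 0.708) after saline. The antisense gene Gm16212 shares 216 exon bases with Rtkn2, so these values are uncertain in the same way as those of Hopx.

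The ratio of 2 genes within a library does not depend on how libraries are scaled. It is given here as a description without a test. Emp2 is the common denominator because it had high counts and passed in no comparison without the epithelial scaling. On the epithelial scale Emp2 was called lower in hyperoxia (−0.39 averaged, adjusted p = 0.00049). Since Emp2 was chosen with its values known, the ratios give the fold changes above library by library and are no further evidence for them. The log2 count ratio of Lmo7 to Emp2 averaged −1.30 ± 0.11 over the 6 hyperoxia libraries and −1.95 ± 0.06 over the 6 room air libraries (SD). It ran from −1.49 to −1.15 in hyperoxia and from −2.06 to −1.90 in room air, without overlap. The share of all genes whose ratio to Emp2 lies apart in this way was not computed, so no ratio can be set against it. The ratio of Clic5 to Emp2 ran from −0.03 to 0.13 in hyperoxia and from −0.36 to −0.16 in room air, also apart, though Clic5 levels overlapped. The ratio of Hopx to Emp2 ran from −2.05 to −1.74 in hyperoxia and from −2.50 to −2.16 in room air. For Ager (difference in mean log2 ratio 0.38) and Akap5 (0.33) the ratios overlapped at the edges, and for Pdpn (0.09) and Rtkn2 (−0.09) they overlapped broadly.

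**Figure D3:**
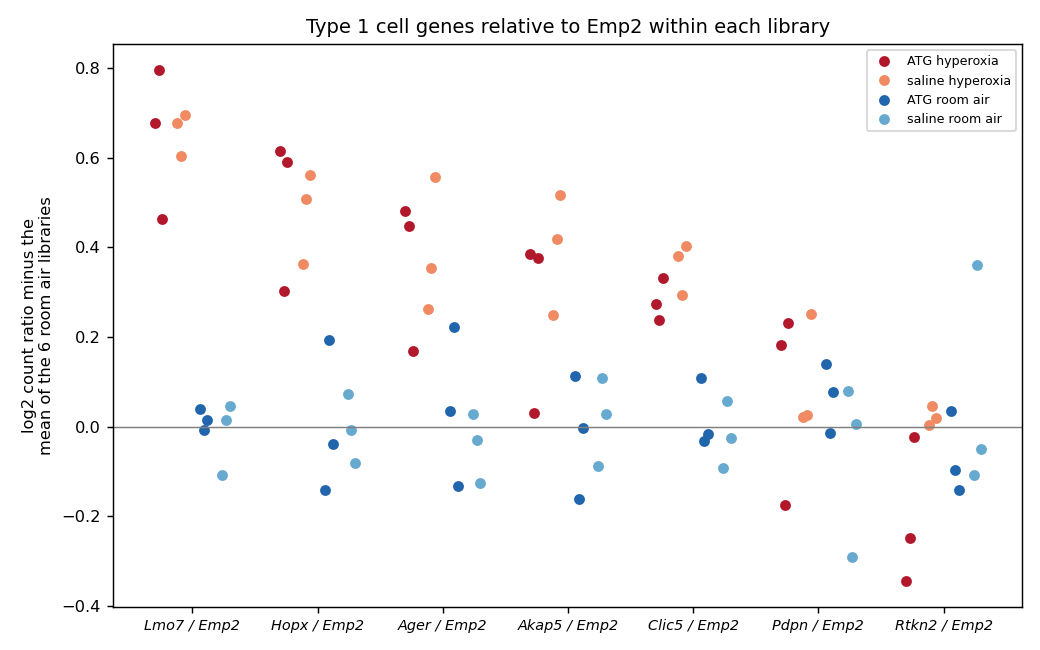
Log2 ratio of the count of each gene to that of Emp2 within each library, minus the mean of the 6 room air libraries, in the 4 groups. Points of Lmo7, Hopx and Clic5 in both hyperoxia groups lie above all room air points, and those of Pdpn and Rtkn2 overlap them. The share of all genes that lie apart in this way was not computed.

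Other genes of type 1 cells were counted from a list of 20. Averaged over injections, 9 rose, 1 fell and 10 did not pass, with a median log2 fold change of 0.24, where 22.4% of all tested genes were called. Scnn1g, a subunit of the epithelial sodium channel that clears lung fluid, averaged 466 CPM in ATG hyperoxia and 461 CPM in saline hyperoxia, against 316 CPM in ATG room air and 278 CPM in saline room air (0.65, SE 0.07, adjusted p = 1.07e-05). Gprc5a, an orphan receptor induced by retinoic acid, rose by 0.63 (adjusted p = 0.000134), and Fgfbp1, a carrier of fibroblast growth factors, by 1.10 (adjusted p = 0.000323). Fgfbp1 had low levels, at 11 to 25.4 CPM on average over the groups. The median of the 8 genes was 0.26, so the list as a whole did not change more than they did. Cav1, the caveolin of type 1 and endothelial cells, was the 1 that fell (−0.31, adjusted p = 0.0035). After ATG alone 4 rose and 1 fell, where 5.41% of all genes were called higher and 6.25% lower. After saline alone 6 rose and none fell, where 4.70% were called higher and 4.50% lower. These comparisons share no library, but they were fitted together with a shared estimate of the spread per gene.

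Most markers of epithelium in general also rose in hyperoxia averaged over injections, where 22.4% of all genes were called. Of 10 such markers, 6 rose in the averaged comparison and none fell, with a median of 0.33, among them Cdh1, the E-cadherin gene (0.39, adjusted p = 0.000325), St14, a membrane protease (0.46, adjusted p = 0.001), and Cldn7, a tight junction claudin (0.41, adjusted p = 0.0152). Their summed level ran from 987 to 1164 CPM in ATG hyperoxia, from 906 to 1050 CPM in saline hyperoxia, from 823 to 893 CPM in ATG room air and from 743 to 816 CPM in saline room air, without overlap between the oxygen conditions. Cdh1 made up most of that sum, at 605, 588, 478 and 433 CPM on average in these groups. Scaled to that sum, which moved the median of all tested genes by −0.32 in the averaged comparison, Lmo7 passed as higher in the averaged comparison (0.26, adjusted p = 0.0112), as did 2.56% of all genes, but it passed after neither injection alone. Hopx (0.10, adjusted p = 0.335), Ager (−0.02, 0.882), Akap5 (−0.06, 0.586) and Clic5 (−0.07, 0.472) no longer passed, and the last 3 changed sign. On the same scale Pdpn (−0.30, adjusted p = 0.0159), Emp2 (−0.39, 0.00049) and Rtkn2 (−0.49, 0.00177) were called lower, as were 46.3% of all genes. Each of the 3 had moved by about the same shift as the median gene.

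Type 2 cell genes were mixed. Of 12, 5 fell, 1 rose and 6 did not pass in the averaged comparison, with a median of −0.08. After ATG alone 5 fell and none rose, where 6.25% of all genes were called lower and 5.41% higher. After saline alone 4 rose and 2 fell, where 4.70% were called higher and 4.50% lower. None of the 12 passed the interaction of ATG and hyperoxia, so the effects after ATG and after saline are not shown to differ. Lyz2, a lysozyme that macrophages make too and whose copy Lyz1 can share its reads, fell (−0.73, adjusted p = 0.000285), as did Sftpa1, surfactant protein A (−0.57, adjusted p = 0.000147), and Cxcl15, a lung chemokine (−0.35, adjusted p = 0.00314). Genes of the transitional state between type 2 and type 1 cells rose in 8 of 12 cases with none lower, at a median of 0.36, where 22.4% of all genes were called. They were led by Cdkn1a, the cell cycle inhibitor p21, which other lung cells induce as well (2.87, adjusted p = 2.33e-07), Lgals3, galectin-3 (1.09, adjusted p = 6.33e-05), and Areg, an EGF receptor ligand (1.31, adjusted p = 0.00107). Cdkn1a made up most of that list's summed level in hyperoxia, where it averaged 1015 CPM after ATG and 976 CPM after saline. The list is not separate from those above, since it shares Krt7 and Itgb6 with the other type 1 markers and Krt8 and Krt18 with the epithelial markers. All 5 proliferation genes fell, at a median of −1.80.

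Markers of other lung cells were counted in the same averaged comparison, where 22.4% of all tested genes were called. Of 7 fibroblast and myofibroblast markers 3 fell and none rose, with a median of −0.28. After each injection 2 fell, where 6.25% of all genes were called lower after ATG and 4.50% after saline. Pdgfra, the receptor of alveolar myofibroblast progenitors, averaged 112 CPM in ATG hyperoxia and 122 CPM in saline hyperoxia, against 194 CPM in ATG room air and 202 CPM in saline room air (−0.76, adjusted p = 4.16e-05). Acta2, the smooth muscle actin gene (−0.43, adjusted p = 0.000163), and Col1a2, a collagen I chain (−0.30, adjusted p = 0.0309), fell as well. Of 8 endothelial markers 2 rose and 1 fell, of 7 club and secretory cell markers 1 rose and 1 fell, and of 6 macrophage markers 1 rose and none fell. None of 7 ciliated cell markers passed. The part of these cells in the type 1 cell gene values was not tested.

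**Figure D4:**
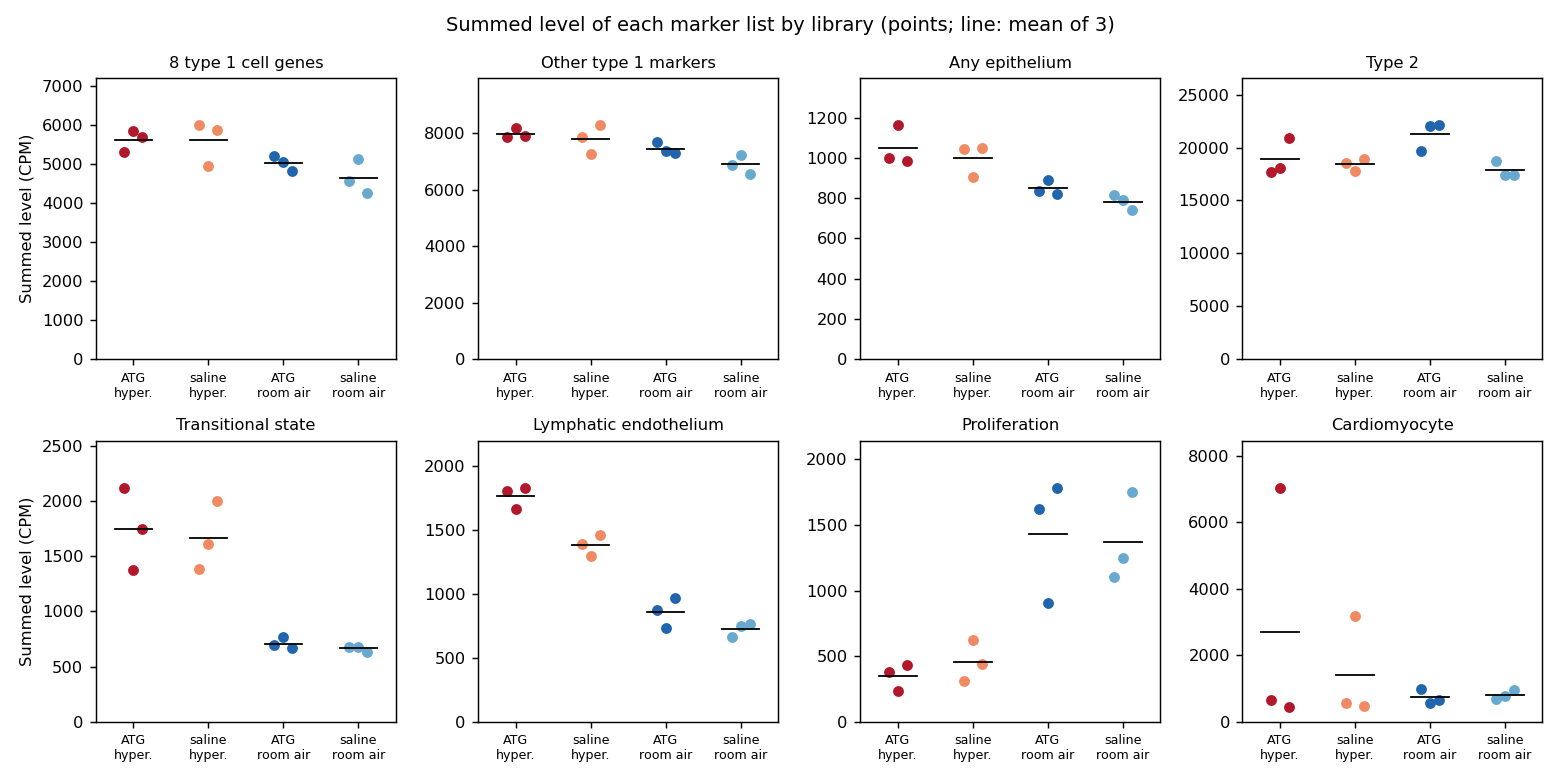
Summed level (CPM, each axis starting at 0) of the 8 type 1 cell genes and 7 marker lists by library, with lines for the mean of 3. Epithelial marker sums are higher in every hyperoxia library (906 CPM or more) than in any room air library (893 CPM or less), and the cardiomyocyte sum stands out in ATG hyperoxia 2 (7036 CPM) and saline hyperoxia 2 (3194 CPM).

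Regulators of alveolar epithelial fate were counted at the RNA level in the averaged hyperoxia comparison, where 22.4% of all tested genes were called. Of 12, Foxa2, a forkhead factor of lung epithelium, rose (0.28, adjusted p = 0.0403), Etv5, which maintains type 2 cells, fell (−0.25, adjusted p = 0.0171), and 10 did not pass, with a median of 0.06. Nkx2-1, which type 1 and type 2 cells both need, was at −0.08 (adjusted p = 0.442). Of 9 targets of YAP and TAZ, the mechanosensitive coactivators used by type 1 cells, Ankrd1 rose (2.19, adjusted p = 0.00654) and Axl (−0.27, adjusted p = 0.00257) and Tgfb2 (−0.32, adjusted p = 0.0147) fell. Ankrd1 averaged 97.3 ± 110 CPM in ATG hyperoxia and 43.6 ± 39.1 CPM in saline hyperoxia, so its libraries varied widely. In room air it averaged 14.4 ± 4.78 CPM after ATG and 14.1 ± 5.01 CPM after saline. Ankrd1 is also a cardiac gene. The cardiomyocyte sum stood out in ATG hyperoxia 2 (7036 CPM) and saline hyperoxia 2 (3194 CPM), but not in the other hyperoxia libraries. The part of cardiac transcripts in the Ankrd1 value was not tested. Of 12 ligands and signalling partners of RAGE, Icam1, an adhesion molecule induced by NF-κB, rose (0.82, adjusted p = 8.94e-06), as did the NF-κB subunit Rela (0.40, adjusted p = 0.00032) and the adhesion molecule gene Vcam1 (0.34, adjusted p = 0.0077). Hmgb1, a RAGE ligand whose processed copies can share its reads, fell (−0.31, adjusted p = 0.00134), and the other 8 did not pass.

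Partners of the structural members were counted in the same comparison, in which 22.4% of all tested genes were called. Of 7 partners of podoplanin, Ezr, the ezrin gene, rose (0.28, adjusted p = 0.013) and Rdx, the radixin gene, fell (−0.23, adjusted p = 0.00471). Of 10 partners of CLIC5 at the cell cortex, which share Ezr and Rdx with that list, 2 rose and 3 fell, and Podxl, podocalyxin, had the smallest adjusted p (−0.38, adjusted p = 0.000191). Of 12 partners of AKAP5, Prkar2a, a regulatory subunit of protein kinase A (0.40, adjusted p = 0.000458), and Ppp3ca, the calcineurin catalytic subunit (0.37, adjusted p = 0.000782), rose and none fell. Among 15 genes of the families of Clic5, Emp2, Rtkn2 and Lmo7, 4 rose and none fell. Besides Clic5 and Lmo7 these were Clic4 (0.18, adjusted p = 0.0332) and Pdlim5 (0.20, adjusted p = 0.029), while Emp1 (−0.07, adjusted p = 0.455) and Rtkn (−0.14, adjusted p = 0.235), like Emp2 and Rtkn2, did not pass.

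ATG was compared with saline to ask whether the drug altered lung gene expression in room air and in hyperoxia, the question in the study's title being about angiogenic pathways. No type 1 cell gene passed in room air, where 0% of all genes were called, or in hyperoxia, where 0.00634% were, or averaged over oxygen, where 0.0444% were. By edgeR's quasi-likelihood test 949 genes of the table had an unadjusted p under 0.05 in room air and 897 in hyperoxia, none of them among the 8, and DESeq2 called 16 and 11 genes of the table and none of the 8. The median log2 fold change of the 8 genes was 0.05 in hyperoxia and 0.13 in room air, and 5 of 8 values in hyperoxia and 7 of 8 in room air were above 0. In hyperoxia Ager averaged 573 ± 86 CPM after ATG and 554 ± 69.4 CPM after saline (n = 3 each), and its 95% interval ran from −0.24 to 0.34 on the log2 scale. Lmo7 averaged 433 ± 80.5 CPM after ATG and 414 ± 57.6 CPM after saline in hyperoxia (−0.20 to 0.33), and Hopx 294 ± 14.7 CPM after ATG and 275 ± 21.7 CPM after saline (−0.14 to 0.33). Over the 8 genes the intervals in hyperoxia reached no lower than −0.47 and no higher than 0.34, and the libraries of ATG and saline overlapped for each gene, whereas 5.55% of all genes lay apart and higher after ATG and 5.54% apart and lower.

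In room air Pdpn came nearest to a difference. It stood at 67.3, 62.7 and 63.2 CPM after ATG, against 61.4, 49.5 and 52.8 CPM after saline, so that every ATG library lay above every saline library, as for 6.26% of all genes, with 5.72% apart in the other direction. Its log2 fold change was 0.24 (95% interval −0.00 to 0.49, adjusted p = 0.837). The saline room air libraries were all male, while those of ATG room air were of both sexes. Ager averaged 486 ± 74.2 CPM after ATG and 424 ± 49.2 CPM after saline in room air (log2 fold change interval −0.09 to 0.49), and Clic5 945 ± 50.9 CPM after ATG and 854 ± 89 CPM after saline (−0.09 to 0.38). The saline room air library 3, the lowest of its group for 6 of the 8 genes, had the lowest summed level of all 12 libraries, at 4250 CPM.

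**Figure D5:**
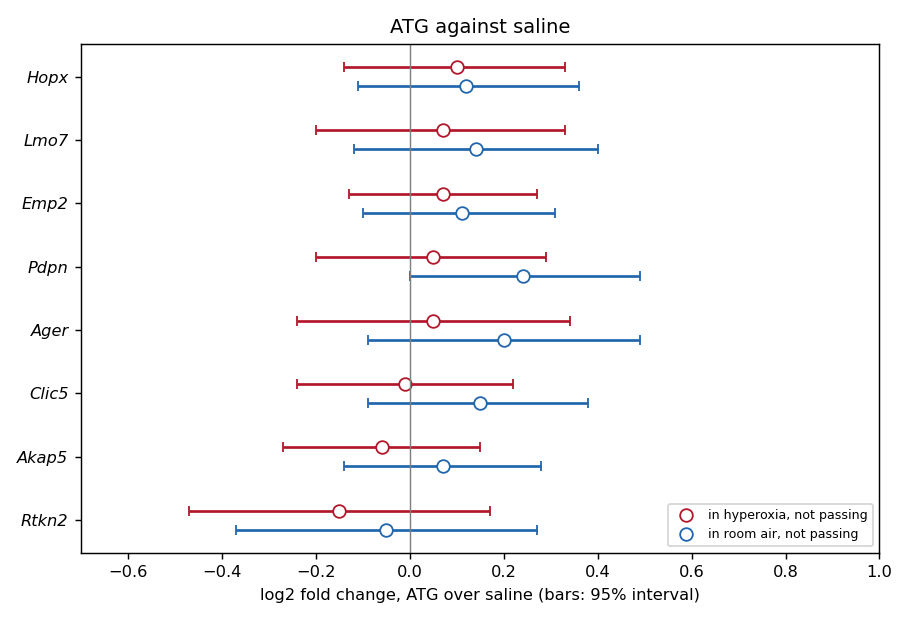
Log2 fold change of ATG over saline for each type 1 cell gene in hyperoxia and in room air, with 95% intervals. Every interval includes 0, and the Pdpn value in room air (0.24, from −0.00 to 0.49) lies farthest from it.

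The effect of hyperoxia after ATG was set against that after saline in an interaction term. None of the 8 genes passed, and 0% of all tested genes did, with 465 at an unadjusted p under 0.05 and 0 by DESeq2. All 8 differences were below 0, from −0.19 to −0.03, with a median of −0.11 against −0.01 over all genes, and the 8 values come from the same 12 libraries. The 95% interval of Ager ran from −0.56 to 0.26 and that of Akap5 from −0.43 to 0.16. So the calls of Akap5 after saline and not after ATG are not shown to differ. The same holds for the 20 other type 1 markers, of which none passed the interaction or any ATG comparison.

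Across the 12 libraries the genes most like the mean profile of the 8, by Pearson's r of log2 CPM among 11965 genes compared, were Snx31 (r = 0.94), Eral1 (0.92), Erc2 (0.90), Tspan8 (0.89) and Kat5 (0.88). These libraries share their oxygen groups and differ in depth, and the values are a description. Of the 8 genes Clic5 lay nearest that mean (0.97), followed by Ager (0.84), Lmo7 (0.80), Hopx (0.79) and Akap5 (0.78), and Emp2 (0.52), Pdpn (0.51) and Rtkn2 (0.26) lay farther away. None of the 5 genes outside the list passed in either hyperoxia comparison. Snx31, a sorting nexin, averaged 6.87 CPM in ATG hyperoxia and 7.69 CPM in saline hyperoxia, against 5.42 CPM in ATG room air and 4.46 CPM in saline room air.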

How the data were processed

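Raw read counts by gene symbol were deposited by the authors as a single table for 12 whole lung libraries, unnormalized and unpooled. Per the labels' protocols, cDNA was amplified with a NuGEN Ovation kit, made into Nextera XT libraries and sequenced from both ends. The submitters' processing notes name Bowtie2, Cufflinks, DESeq and mm10 but no version. How reads were counted, and on which strand, is not given in the sources used here, so genes with antisense partners are uncertain. Amplified reads are not independent molecules.

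The members and all gene lists were chosen with earlier results of these data known. Columns were matched to samples by name. No replicates agreed within sampling noise (chi-square per degree of freedom 6.83 to 41.9). Genes passing filterByExpr (minimum count 10, minimum total 15) numbered 15761, and held 99.96% of the reads counted. After TMM scaling, a model with a mean for each group (8 residual degrees of freedom) was fitted to the 12 libraries, and edgeR's quasi-likelihood test (edgeR 4.0.16, R 4.3.3) gives every fold change and adjusted p in the text. Tests were two-sided, with Benjamini-Hochberg adjustment over all tested genes and a threshold of 0.05. The standard error is the absolute log2 fold change divided by the square root of F, and 95% intervals use the total degrees of freedom. The averaged comparison is the mean of both injections or both oxygen conditions. The scripts were tested on simulated counts.

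Named genes are all members, the first 3 of each list by adjusted p in the averaged hyperoxia comparison, and the 5 most correlated with the members' mean z-score among genes at 5 CPM or more. Genes named outside that rule (Cav1, Nkx2-1, Prox1, Vcam1, Clic4, Emp1 and Rtkn) were chosen after their values were seen. Ratios to Emp2 were added after seeing the data and carry no test. No row matched S100a12, Ccl21a or Muc16. Alternatives were DESeq2 1.42.0, limma-voom (limma 3.58.1), RLE factors, no filter, the replicate number as a block, only the 6 samples compared, each sample left out, the cardiac-rich and muscle-rich libraries left out, sex (read from Xist and Y-linked genes) as a covariate, and scaling to the epithelial markers. Positions are from GENCODE M21 and promoters from RefSeq, both on GRCm38, the assembly that mm10 names.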

Additional observations from a re-analysis of the deposited data

How the results depend on the processing

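Over 1208 alternative values for the 8 genes in all comparisons, 1087 kept their direction and side of the threshold, 69 changed sign without a call in either setting, 34 lost a call, 13 gained a call and 5 called or newly called values reversed, and the causes were not tested. Of the 3 genes called after saline, DESeq2 called 5 and the fit without saline hyperoxia 2 and ATG hyperoxia 2 called 5, each adding Ager and Clic5. Of the 2 called after ATG, the fit of the 6 libraries alone called 1, without Hopx. Leaving out 1 library at a time gave 1 to 4 genes after saline, 1 to 2 after ATG and 3 to 5 averaged. The count after saline was 1 (Lmo7) without saline hyperoxia 1 or 3 and without saline room air 3, and 2 without saline room air 1 or 2, ATG room air 3 or ATG hyperoxia 1. The count after ATG was 1 (Lmo7) without ATG room air 1 or 3 or ATG hyperoxia 1 or 3. The averaged count was 3 without ATG room air 3, saline hyperoxia 1 or saline room air 3. Scaling to the epithelial markers moved all genes down alike (median shift −0.35 after saline, −0.32 averaged), so that smaller effects change sign by construction, among them Akap5 after saline (−0.02) and, averaged, Ager (−0.02), Akap5 (−0.06), Clic5 (−0.07) and Pdpn (−0.30). Samples of the same number deviated together little in most pairs (r from −0.156 to 0.28, above 0.1 in 2 of 18 pairs). Samples of different numbers were not compared in this way, so whether the numbers pair samples by litter or batch was not settled. The replicate block ended the Akap5 call after saline (0.32, adjusted p = 0.0797) and left 2 genes called there. ATG calls over the whole table, averaged over oxygen, numbered 7, against 94 by DESeq2, 24 with no filter, 3 with RLE factors and 3 with the block. Under every alternative run, 0 of the 8 genes passed an ATG comparison or the interaction. With 3 libraries a group, the log2 intervals of the 8 genes for ATG in hyperoxia lay between −0.47 and 0.34.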
